A study of Homo sapiens with 4 samples.

Results

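NRF2 defence genes are genes switched on through the transcription factor NRF2 (NFE2L2) that supply glutathione, reduced thioredoxin and NADPH. The 9 genes chosen by name were GCLC, GCLM, SLC7A11, NQO1, HMOX1, TXNRD1, SRXN1, PGD and OSGIN1, and 7 of them have a row among the 8727 genes of the authors' deposited table. SLC7A11, the cystine importer, and HMOX1, the haem oxygenase induced by stress, have no row there. The authors' deposited table stops at an adjusted p under 0.05, so each gene with a row is a called gene. A gene without a row, these included, may have been tested without reaching the threshold, and whether it was is not known here. The libraries came from HepG2 cells, a human liver tumour line labelled as hepatoblastoma, and were made from polyadenylated RNA. Isoginkgetin was given at 20 µM for 24 h to the cells of 2 libraries, and the other 2 libraries came from cells given the solvent DMSO. Isoginkgetin, a biflavonoid from plants, is known to inhibit the splicing of pre-mRNA. For each gene the table holds the mean of the normalized counts, the fold change on the log2 scale, its standard error (SE), and a raw and an adjusted p, all from the authors' own test. Values per library are not analysed here, and the labels do not say that replicates came from separate cultures, so the p-values measure a spread that may be technical. Positive fold changes are read as higher in isoginkgetin, the usual order of treatment over solvent. The header does not name the order, and the other order would turn every direction below.

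In unstressed cells the adaptor KEAP1 holds NRF2 for ubiquitination by the CUL3 ligase and its breakdown by the proteasome. Electrophiles and oxidants modify cysteines of KEAP1, and NRF2 then accumulates, pairs with a small MAF protein and binds antioxidant response elements in the DNA of its targets. In liver cells this programme is known for detoxifying reactive metabolites. The recycling of glutathione and thioredoxin draws electrons from NADPH, and quinone reductase uses NADPH or NADH.

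The 9 genes and the lists below were chosen with earlier results of these data known, so their counts are a description. Of the 9 genes chosen, 7 were called higher in isoginkgetin, 0 lower, and 2 have no row. Of the 20024 genes that the authors tested, 22.4% were called higher and 21.1% lower at an adjusted p under 0.05, 43.6% in all. The median log2 fold change of the 7 with a row was 1.26, against 0.21 over all genes in the authors' deposited table, which are likewise only called genes. At least 2-fold higher were 4 of the 9, the glutathione synthesis genes GCLM and GCLC and the thioredoxin system genes TXNRD1 and SRXN1, against 6.26% of all genes tested. NQO1, OSGIN1 and PGD were less than 1.5-fold higher, so 4 of the 9 also passed 1.5-fold, against 12.2% of all genes tested. Under stricter thresholds 6 of the 9 were higher at an adjusted p under 0.001 (14.5% of all genes tested), OSGIN1 being lost, and 5 with Bonferroni (10.7%). All 7 with a row had a mean of at least 100 normalized counts. Of all genes tested, whatever their level, 17.6% were higher with such a mean. The share among genes tested at that level is not known here. The median SE in the table was 1.11 at means under 30 and 0.08 at 1000 or more. The shares of all genes tested given here and below are not matched in level. All 7 also lay above the median of the table. Called genes above that median are by construction 21.8% of all genes tested. In bulk RNA a shift in the kinds of cells and a shift in RNA per cell cannot be told apart.

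**Figure D1:**
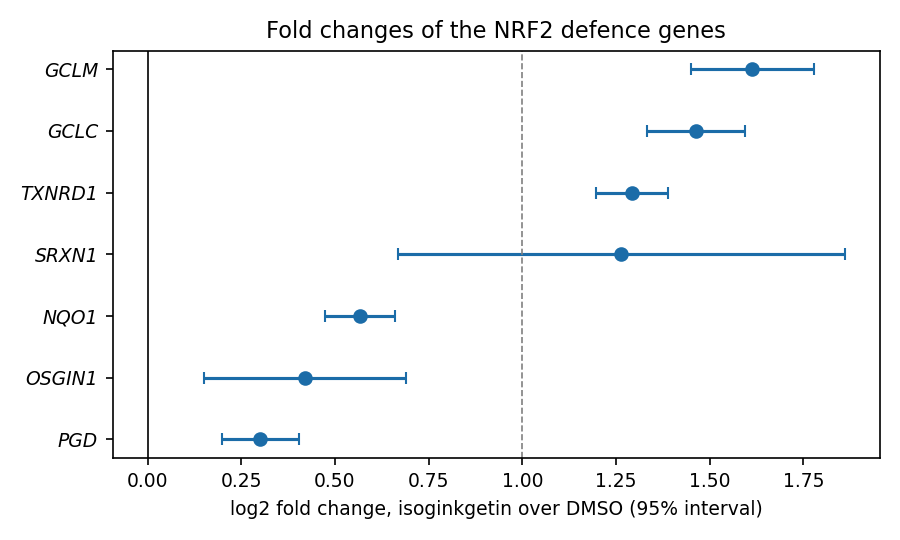
Log2 fold change of each NRF2 defence gene in isoginkgetin over DMSO (x axis), 1 row per gene, with points at the authors' deposited estimates and bars for the 95% interval from their SE. The dashed line marks 2-fold; GCLM at 1.61, GCLC at 1.46 and TXNRD1 at 1.29 lie to its right with their whole intervals, and the interval of SRXN1 crosses it.

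GCLM and GCLC are the modifier and the catalytic subunit of glutamate-cysteine ligase, which makes the first bond of glutathione. In the authors' deposited table GCLM had the largest change of the 7, a log2 ratio of 1.61 (SE 0.08, adjusted p 1.44e-80), which is 3.06-fold with a 95% interval of 2.73 to 3.43. With 2 libraries in each group, its mean and fold change in the authors' deposited table imply group levels of 3058 normalized counts in isoginkgetin and 999 in DMSO. Such implied levels are computed here and carry no spread of their own. For GCLC the log2 ratio was 1.46 (SE 0.07, adjusted p 1.44e-105) per the authors' deposited table, or 2.76-fold (2.52 to 3.02). Its implied levels from the authors' deposited table were 6845 normalized counts in isoginkgetin and 2482 in DMSO. The fold changes of GCLM and GCLC differed by 0.15 on the log2 scale, with a 95% interval of −0.06 to 0.36 that takes the estimates as independent, so their order is within the error. The partner of SLC7A11 in the cystine importer, the heavy chain SLC3A2, was higher at 0.92 (SE 0.05) per the authors' deposited table, named after its values were seen.

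TXNRD1 is the cytosolic thioredoxin reductase, a selenoprotein that passes electrons from NADPH to thioredoxin. For TXNRD1 the authors' deposited table gives a log2 ratio of 1.29 (SE 0.05, adjusted p 1.36e-148), the smallest adjusted p of the 7 genes and the gene ranked 33 by p-value in the whole table. The implied levels from the authors' deposited table were 20687 normalized counts in isoginkgetin and 8443 in DMSO, a 2.45-fold difference (2.29 to 2.62). TXNRD1 lay 0.17 below GCLC on the log2 scale, with an interval of 0.01 to 0.33. SRXN1 encodes sulfiredoxin, which restores peroxiredoxins that were overoxidised. It stood at 1.26 (SE 0.30, adjusted p 2.18e-05) per the authors' deposited table, or 2.40-fold, with an interval of 1.59 to 3.63. From the authors' deposited table its implied levels were 210.4 normalized counts in isoginkgetin and 87.6 in DMSO. Its SE was near that of other genes at such a level, whose median over the 200 genes nearest in mean count was 0.27. In GENCODE release 29, 85.0% of the exon bases of SRXN1 also belong to AL121758.1, a protein-coding gene on the same strand. Where both genes are annotated, reads in those bases cannot be assigned to either gene alone. The annotation behind the authors' counts is not known here, so how far this touches the value of SRXN1 is uncertain.

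NQO1 is the quinone reductase that reduces quinones in a single step with NADPH or NADH. Its log2 ratio was 0.57 (SE 0.05, adjusted p 3.78e-31) per the authors' deposited table, or 1.48-fold (1.39 to 1.58). Its implied levels from the authors' deposited table were 18873 normalized counts in isoginkgetin and 12744 in DMSO. NQO1 was thus called with high precision at a modest size: its change was 0.73 smaller than that of TXNRD1 on the log2 scale (0.59 to 0.86). The libraries carry no strand, and 17.7% of the exon bases of NQO1 overlap an antisense gene in GENCODE release 29. OSGIN1 encodes an inhibitor of growth named for its induction by oxidative stress. It stood at 0.42 (SE 0.14, adjusted p 0.00470) per the authors' deposited table, 1.34-fold (1.11 to 1.61), the largest adjusted p of the 7. The implied levels of OSGIN1 from the authors' deposited table were 744 normalized counts in isoginkgetin and 556 in DMSO, and 13.9% of its exon bases are shared with another coding gene, AC009119.2. PGD, the 6-phosphogluconate dehydrogenase of the pentose phosphate pathway, makes NADPH. At 0.30 (SE 0.05, adjusted p 4e-08) it had the smallest change of the 7 in the authors' deposited table, 1.23-fold (1.15 to 1.32). For PGD the authors' deposited table implies 9177 normalized counts in isoginkgetin and 7448 in DMSO.

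In order of fold change the genes ran GCLM, GCLC, TXNRD1, SRXN1, NQO1, OSGIN1 and PGD. Of the 6 pairs of neighbours in this order, the 95% interval of the difference excluded 0 for 2, GCLC over TXNRD1 and SRXN1 over NQO1. Neither interval excluded 0 with SEs 1.5 times as large. Between more precisely measured genes of the upper 4 and the lower 3, GCLC exceeded NQO1 by 0.90 on the log2 scale (0.74 to 1.06). Among the 4493 genes called higher, 15.4% had a larger fold change than GCLM, 20.1% than TXNRD1, 56.0% than NQO1 and 89.1% than PGD. Thus PGD was among the smaller increases of the table.

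**Figure D2:**
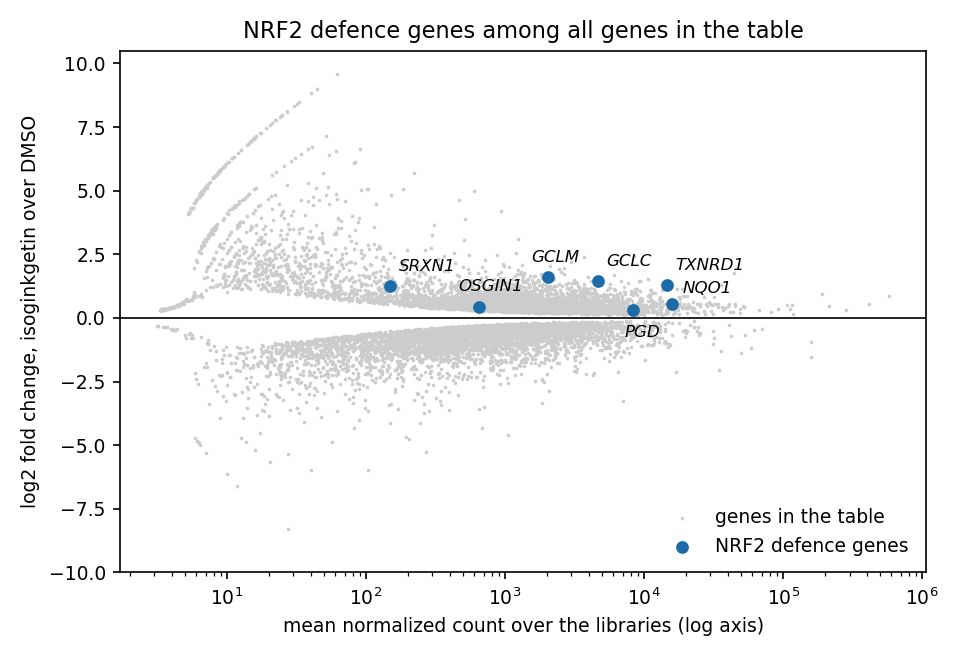
Log2 fold change in isoginkgetin over DMSO (y axis) against the mean normalized count over the libraries (x axis, log scale) for every gene in the authors' deposited table (grey) and the 7 NRF2 defence genes (blue). The NRF2 defence genes with a row all lie above 0, at mean normalized counts of 149.0 to 15808, and below the largest increases, which belong to genes with low counts.

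Levels can be set side by side only per length of transcript. Divided by the union of the exons annotated in GENCODE release 29, NQO1 was the most abundant of the 7, at an implied 5800 normalized counts per kb in isoginkgetin and 3917 in DMSO. PGD stood at 3094 per kb in isoginkgetin and 2511 in DMSO, and TXNRD1 at 3084 per kb in isoginkgetin and 1259 in DMSO. The change thus brought TXNRD1, which was below PGD in DMSO, to about the same implied level in isoginkgetin. GCLC had 792 per kb in isoginkgetin and 287 in DMSO, and GCLM 564 in isoginkgetin and 184.4 in DMSO. SRXN1 was the least abundant, at 78.0 per kb in isoginkgetin and 32.5 in DMSO. With the median length of the coding transcripts in place of all exons, chosen after seeing the data, NQO1 still stood first and SRXN1 last in both groups, but TXNRD1 then exceeded PGD in isoginkgetin, at 5393 against 4869 per kb.

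**Figure D3:**
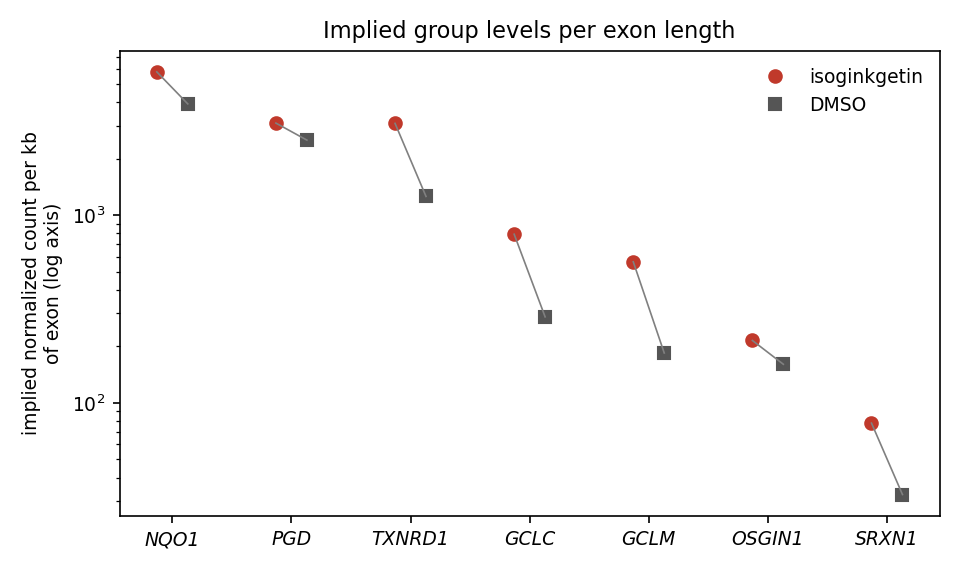
Implied normalized count per kb of annotated exon (y axis, log scale) for each NRF2 defence gene, in isoginkgetin (red circles, left) and DMSO (grey squares, right), computed from the authors' deposited mean and fold change, with no error bars because values per library are not used here. The steepest lines belong to GCLM, GCLC, TXNRD1 and SRXN1, while PGD moves little, with 3094 in isoginkgetin and 2511 in DMSO.

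The proximal promoters of these genes were searched for letters of binding motifs, as a description without a test. RefSeq sequences of GRCh38.p14, 250 bases before to 50 after each start, were found for 7 genes with 8 starts. The core of the antioxidant response element, TGACNNNGC on either strand, was present in 4 of the 8 windows, belonging to GCLM, PGD and both starts of TXNRD1, and in 13.3% of all 35116 RefSeq windows. The windows of GCLC, NQO1, SRXN1 and OSGIN1 held no match, which says only that these letters are not in this stretch. The AP-1 motif TGANTCA, which can share letters with the antioxidant element, was present in OSGIN1 alone of the 7, beginning 97 bases before its start as TGACTCA, and in 7.71% of all windows. TGATGNAA, a core bound by C/EBP and ATF pairs, was in none of the 8 windows and in 3.62% of all windows. The 250 bases before the start are shown for the 3 genes with an antioxidant element core, 5′ to 3′ on the strand of the gene, with the match in capitals. The match begins 34 bases before the start of GCLM and 201 before that of PGD, and reads TGACTAAGC and TGACATTGC on the other strand. In TXNRD1 it begins 99 bases before the upstream start and 102 before the downstream start, and a further match at the upstream start ends on the first transcribed base and is not in capitals.
GCLM, chr1:93909431-93909680, minus strand: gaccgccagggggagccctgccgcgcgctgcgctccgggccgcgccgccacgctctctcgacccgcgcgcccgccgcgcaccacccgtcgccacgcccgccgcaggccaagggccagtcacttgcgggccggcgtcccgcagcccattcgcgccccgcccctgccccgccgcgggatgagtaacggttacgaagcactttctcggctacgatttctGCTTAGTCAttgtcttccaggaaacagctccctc
TXNRD1 upstream start, chr12:104215529-104215778, plus strand: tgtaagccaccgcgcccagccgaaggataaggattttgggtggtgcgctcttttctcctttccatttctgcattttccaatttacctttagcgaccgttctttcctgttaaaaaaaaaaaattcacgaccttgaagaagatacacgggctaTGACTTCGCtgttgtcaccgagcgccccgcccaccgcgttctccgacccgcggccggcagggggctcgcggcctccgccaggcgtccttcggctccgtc
TXNRD1 downstream start, chr12:104286782-104287031, plus strand: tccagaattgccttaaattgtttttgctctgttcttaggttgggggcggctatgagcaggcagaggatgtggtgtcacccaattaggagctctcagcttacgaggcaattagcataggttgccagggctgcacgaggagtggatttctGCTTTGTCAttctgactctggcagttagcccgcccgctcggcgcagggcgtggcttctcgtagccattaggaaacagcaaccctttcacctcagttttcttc
PGD, chr1:10398814-10399063, plus strand: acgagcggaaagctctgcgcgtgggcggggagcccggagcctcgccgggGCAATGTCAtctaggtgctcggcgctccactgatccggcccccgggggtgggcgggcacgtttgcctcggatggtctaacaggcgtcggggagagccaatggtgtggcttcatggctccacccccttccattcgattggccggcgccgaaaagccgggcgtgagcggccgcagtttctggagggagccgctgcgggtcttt

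The genes with a core match in this window had both large and small changes. GCLM and TXNRD1 stood at 1.61 and 1.29 in the authors' deposited table and PGD at 0.30, while GCLC, with no match, stood at 1.46.

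Among the regulators of NRF2 more genes were called higher than lower. Of 17 listed, 10 were higher (58.8%, against 22.4% of all genes tested), 2 lower (11.8%, against 21.1%) and 5 have no row, with a median of 0.45 against 0.21 over all genes in the authors' deposited table. NFE2L2 itself has no row. The small MAF partners were all higher in the authors' deposited table, with MAFG at 0.998 (SE 0.07), MAFF at 0.83 (SE 0.15) and MAFK at 0.53 (SE 0.09). BACH1, a repressor that competes for the same elements, was higher at 0.68 (SE 0.10) per the authors' deposited table. Its relative BACH2 stood at 1.87 (SE 1.12, adjusted p 0.0138) per the authors' deposited table, where its normalized counts averaged only 13.2. KEAP1 was lower at −0.23 (SE 0.08, adjusted p 0.0116) per the authors' deposited table, and its ligase CUL3 was higher at 0.37 (SE 0.09). SQSTM1, which can draw KEAP1 into autophagy, was higher at 1.004 (SE 0.05) per the authors' deposited table. The coactivators EP300 and CREBBP were higher at 0.38 (SE 0.06) and 0.19 (SE 0.07) per the authors' deposited table. Of the related factors, NFE2L1 was higher at 0.13 (SE 0.06) and NFE2L3 lower at −0.69 (SE 0.15) per the authors' deposited table. Centred on the median of all genes in the table, 8 of these regulators were higher and 4 lower, with NFE2L1 and CREBBP changing sides.

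Beyond glutamate-cysteine ligase, genes of glutathione went both ways. Of 24 listed genes for its synthesis, recycling and transport, 7 were higher (29.2%, against 22.4% of all genes tested), 8 lower (33.3%, against 21.1%) and 9 have no row (median −0.22 in the authors' deposited table). CTH, which makes cysteine from cystathionine, was higher at 1.38 (SE 0.12) per the authors' deposited table, while CBS, the enzyme before it, was lower at −1.28 (SE 0.15). GGT1, which splits glutathione outside the cell, was lower at −1.89 (SE 0.34) per the authors' deposited table, and its near-identical relatives make that value uncertain. The export pump ABCC3 was lower at −1.10 (SE 0.09) per the authors' deposited table. GSR, the reductase that recycles glutathione with NADPH, was higher at 0.77 (SE 0.05) per the authors' deposited table, named after its values were seen. Its change was smaller than that of GCLC by 0.70 on the log2 scale (0.53 to 0.86).

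Most enzymes that use glutathione have no row. Of 23 listed peroxidases and transferases, 2 were higher (8.70%, against 22.4% of all genes tested), 6 lower and 15 have no row. The 26.1% called lower is near the 21.1% of all genes tested. The 8 with a row had a median of −0.65 in the authors' deposited table. GSTA1, an alpha-class transferase of liver, was higher at 2.39 (SE 0.32) per the authors' deposited table, at implied levels of 197.0 normalized counts in isoginkgetin and 37.5 in DMSO, and reads shared with its close relatives make it uncertain. The microsomal MGST1 was higher at 0.97 (SE 0.06) per the authors' deposited table. GPX3, the secreted peroxidase, was lower at −1.42 (SE 0.07) and GSTZ1, an enzyme of tyrosine breakdown, at −1.22 (SE 0.19) per the authors' deposited table.

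**Figure D4:**
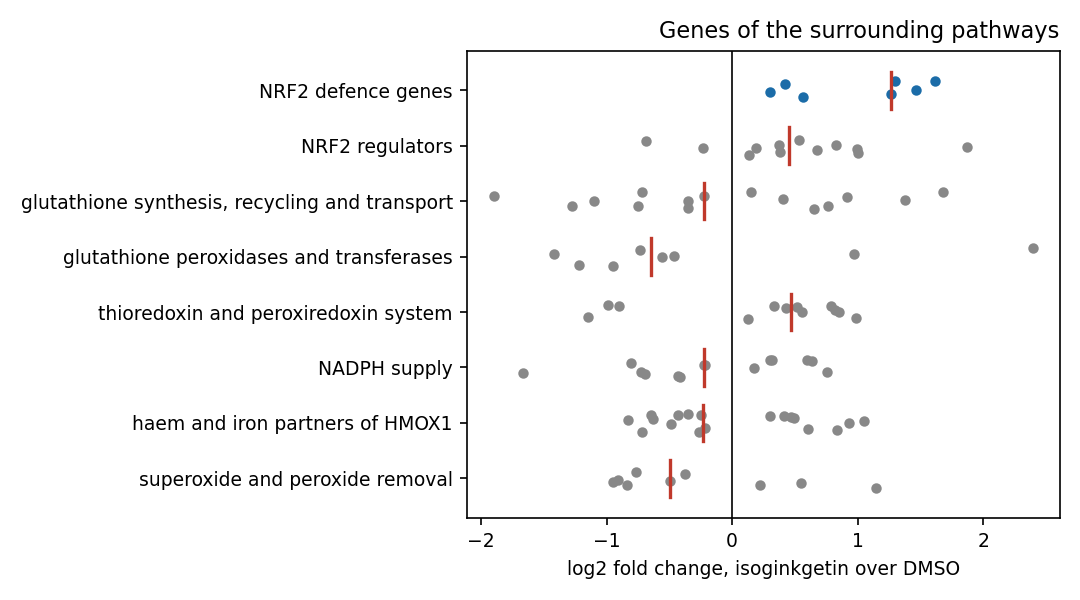
Log2 fold change in isoginkgetin over DMSO (x axis) of each gene with a row in the authors' deposited table, for the NRF2 defence genes (blue) and 7 lists of related pathways (grey), with a red bar at the median of each list and vertical scatter for legibility only. All 7 NRF2 defence genes with a row lie above 0, and the other lists hold genes on both sides, with medians from −0.65 to 0.47.

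In the thioredoxin and peroxiredoxin system 9 of 22 listed genes were higher (40.9%, against 22.4% of all genes tested), 3 lower (13.6%, against 21.1%) and 10 have no row (median 0.47 in the authors' deposited table). SESN2, a stress-induced sestrin, was higher at 0.98 (SE 0.06) per the authors' deposited table. TXN, the cytosolic thioredoxin, was higher at 0.82 (SE 0.06) and TXNIP, the thioredoxin-interacting protein, at 0.85 (SE 0.09) per the authors' deposited table. TXN and TXNIP were named after their values were seen. TXNRD2, the mitochondrial thioredoxin reductase, was lower at −1.15 (SE 0.17) per the authors' deposited table, TXNRD3 at −0.99 (SE 0.31) and the thioredoxin-like NXN at −0.90 (SE 0.09). TXNRD1 and TXNRD2 therefore differed by 2.44 on the log2 scale (2.09 to 2.79), and TXNRD1 and TXNRD3 by 2.28 (1.66 to 2.91).

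Genes that supply NADPH moved in both directions. Of 20 listed, 6 were higher (30%, against 22.4% of all genes tested), 8 lower (40%, against 21.1%) and 6 have no row (median −0.22 in the authors' deposited table). Around PGD, its neighbours in the cytosolic pentose phosphate pathway were named after their values were seen. The authors' deposited table gives 0.30 (SE 0.05) for the transketolase TKT and 0.32 (SE 0.06) for the transaldolase TALDO1. The change of PGD differed from that of TKT by −0.0015 on the log2 scale (−0.15 to 0.14) and from TALDO1 by −0.02 (−0.18 to 0.14). The enzymes that act directly on the product of PGD went apart, with the isomerase RPIA higher at 0.60 (SE 0.10) and the epimerase RPE lower at −0.43 (SE 0.10) per the authors' deposited table. RPIA exceeded PGD by 0.29 on the log2 scale (0.08 to 0.51), and PGD exceeded RPE by 0.73 (0.52 to 0.95). PGLS, the lactonase that acts before PGD, was lower at −0.69 (SE 0.12) per the authors' deposited table. H6PD, an NADPH-making enzyme of the endoplasmic reticulum, was lower at −1.67 (SE 0.08) per the authors' deposited table, 1.97 below PGD on the log2 scale (1.78 to 2.16). The folate enzyme MTHFD1 was lower at −0.81 (SE 0.07) and the mitochondrial isocitrate dehydrogenase IDH2 at −0.72 (SE 0.08) per the authors' deposited table, while ALDH1L2, a mitochondrial folate enzyme, was higher at 0.75 (SE 0.25). IDH1, the cytosolic counterpart of IDH2, was higher at 0.18 (SE 0.05) per the authors' deposited table, named after its values were seen. IDH1 and IDH2 differed by 0.90 on the log2 scale (0.72 to 1.08). IDH1, TKT, TALDO1 and PGD lie near the median of the table, 0.21, and PGD lay 0.09 above that median.

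**Figure D5:**
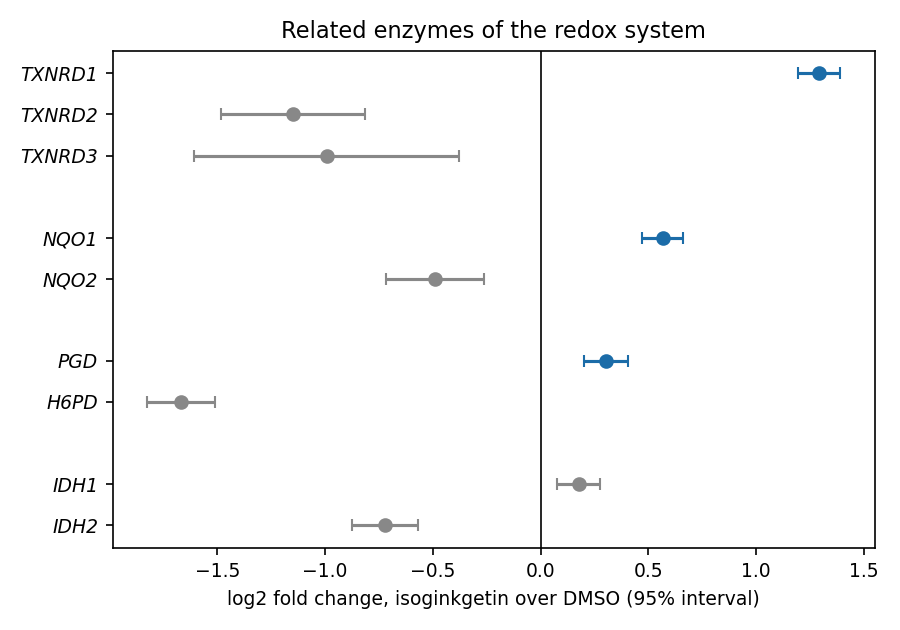
Log2 fold change in isoginkgetin over DMSO (x axis) with the 95% interval from the authors' deposited SE, for NRF2 defence genes (blue) and related enzymes (grey), chosen after their values were seen. TXNRD1, NQO1, PGD and IDH1 lie above 0, and TXNRD2, TXNRD3, NQO2, H6PD and IDH2 below it.

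Genes of haem and iron around HMOX1, which has no row, moved in both directions, with 8 of 21 higher (38.1%, against 22.4% of all genes tested), 10 lower (47.6%, against 21.1%) and 3 without a row (median −0.23 in the authors' deposited table). Both ferritin subunits, which store iron, were higher in the authors' deposited table, FTL at 0.93 (SE 0.23) and FTH1 at 0.83 (SE 0.14). Many processed copies of the ferritin genes share reads with them, and their SEs were large for means of 191634 and 32059 normalized counts, against a median of 0.08 at means of 1000 or more, so the values are uncertain. ALAS1, the entry enzyme of haem synthesis in liver, was higher at 1.05 (SE 0.09) and PPOX, near the end of that pathway, lower at −0.83 (SE 0.20) per the authors' deposited table. In a list for the removal of superoxide, peroxides, quinones and epoxides, 3 of 13 genes were higher (23.1%, near the 22.4% of all genes tested). In that list 6 were lower (46.2%, against 21.1%) and 4 have no row (median −0.49 in the authors' deposited table). The 3 higher were UGDH at 1.15 (SE 0.05), ABHD4 at 0.55 (SE 0.12) and the epoxide hydrolase EPHX1 at 0.22 (SE 0.08) per the authors' deposited table. UGDH, which makes the glucuronic acid donor, and ABHD4 do not themselves remove those compounds. ABHD4 and EPHX1 were named after their values were seen. The reductase CYB5R3 was lower at −0.95 (SE 0.08), the epoxide hydrolase EPHX2 at −0.91 (SE 0.15) and CCS, the copper chaperone of superoxide dismutase, at −0.84 (SE 0.16) per the authors' deposited table. NQO2, the paralog of NQO1, was lower at −0.49 (SE 0.12) per the authors' deposited table, 1.06 below NQO1 on the log2 scale (0.81 to 1.30), named after its values were seen.

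Over the 7 lists around the NRF2 defence genes, 45 of 140 entries were higher (32.1%, against 22.4% of all genes tested), 43 lower (30.7%, against 21.1%) and 52 have no row. Those with a row had a median of 0.13, against 0.21 over all genes in the authors' deposited table. Centred on the latter median, 40 entries were higher and 48 lower. A transcript that overlaps SLC7A11 was named after its values were seen. SLC7A11-AS1, which runs antisense to SLC7A11 and overlaps 865 of its exon bases in GENCODE release 29, was higher at 1.16 (SE 0.45, adjusted p 0.00505) per the authors' deposited table. Without strand, reads in those shared bases, 8.97% of the exon bases of SLC7A11, cannot be assigned to either gene.

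Facts on the whole series bear on these values as follows. Of 15 hepatocyte markers 14 have a row, at mean normalized counts of 433 to 157429. Of the 15, 13 were lower (86.7%, against 21.1% of all genes tested) and 1 higher (6.67%, against 22.4%). Per the authors' deposited table, FGA, a fibrinogen chain, stood at −1.64 (SE 0.05) and AHSG, a plasma protein, at −1.17 (SE 0.05). The 1 higher was APOA2 at 0.54 (SE 0.05), named after its values were seen. Of the markers of other cell types, 1 of 6 fibroblast (16.7%), 1 of 6 leukocyte (16.7%) and 2 of 5 endothelial markers (40%) have a row. Those with a row were all lower, so 16.7%, 16.7% and 40% of these lists were lower, against 21.1% of all genes tested. The secreted lysozyme LYZ stood at −1.08 (SE 0.05) and PECAM1 at −0.68 (SE 0.27) per the authors' deposited table. Their part in the changes of the NRF2 defence genes was not tested.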

How the data were processed

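RNA from 2 isoginkgetin and 2 DMSO libraries was made into non-directional polyA libraries, per the labels' protocols. STAR 2.7.0 and featureCounts are listed in the submitters' processing notes, as are hg19 and mm10, with no roles. The authors deposited a table with the columns of a DESeq2 result, per the file headers. The authors' deposited mean normalized count is a signal averaged over the libraries, the deposited fold change and SE are on the log2 scale, and each gene has a deposited p-value, raw and adjusted. Neither the model nor the library totals are stated in those sources, so the depth is unknown and precision is read from the SE. The number of genes tested, 20024, was recovered as the median of adjusted p times rank over p. Fold changes over SE fall below the normal deviate of the p-value at low counts, with a median ratio of 0.59 under 30 normalized counts and 0.99 at 1000 or more, so the fold changes look shrunken, a step no header records.

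Implied group levels solve the mean and the fold change for 2 groups of 2 libraries. Intervals of 95% are the estimate with normal limits from the SE. Calculations used Python 3.11.15, pandas 2.3.3, numpy 2.4.6 and scipy 1.17.1, and were tested on simulated data. Groups came from the sample titles. The genes and lists were chosen with earlier results of these data known; lists were matched by symbol or RefSeq synonym. All 9 genes and every NRF2 regulator with a row are named, up to 4 genes of each other pathway list and up to 2 of each marker list with the largest absolute change at a mean of at least 100 normalized counts, and exceptions are marked. A gene of the pathway lists is not reported here and is left out of the counts. Other thresholds, centring, rebuilt fold changes, larger SEs and another promoter window were tried.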

Additional observations from a re-analysis of the deposited data

How the results depend on the processing

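No paired analysis was possible because values per library are not used here, and for the same reason neither a replicate block nor leaving out single replicates was run. The 7 NRF2 defence genes with a row were higher at a mean of at least 100 normalized counts. All 7 also lay above the table's median of 0.21, but centring on it shifts the estimates and tests no gene anew. PGD lay 0.09 above that median, against an SE of 0.05, and OSGIN1 0.21 above it, against an SE of 0.14. At an adjusted p under 0.001, 6 remained, without OSGIN1. With Bonferroni over 20024 genes, 5 remained, as SRXN1 and OSGIN1 missed the threshold. At 1.5-fold 4 remained, and 4 at 2-fold. Rebuilt as SE times the normal deviate, the fold changes kept their sign, and SRXN1 moved most, to 1.39. With SEs 1.5 times as large, 0 of the 2 neighbouring differences still excluded 0. The promoter counts were the same in the 250 bases before the start.

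Over all genes the number higher, 4493, was 2900 at an adjusted p under 0.001, 2141 with Bonferroni, 2434 at 1.5-fold and 1253 at 2-fold. The number lower, 4234, was 2210 with Bonferroni, 2809 at 1.5-fold and 1488 at 2-fold. Over the pathway lists the 45 higher entries were 29 with Bonferroni, 24 at 1.5-fold and 7 at 2-fold, and the 43 lower ones 28 at an adjusted p under 0.001, 24 with Bonferroni, 25 at 1.5-fold and 7 at 2-fold. These counts fall because each rule is stricter by construction. Of 84 counts of single lists under the alternatives, 33 moved by more than 1.5 times.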
